A study of Rattus norvegicus with 2 samples.

Results

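Prostanoids are lipid signals made from arachidonic acid, and the genes described here are those that make them, break them down and bind them in the lung. The set held 10 named genes: the synthases *Ptgs1*, *Ptgs2*, *Ptgis*, *Tbxas1*, *Ptges* and *Ptgds*, the breakdown enzyme *Hpgd*, and the receptors *Ptger4*, *Ptgir* and *Tbxa2r*. Members were all probe sets whose only gene symbol in the platform annotation was 1 of these names. That gave 12 probe sets for 9 genes, of 31042 non-control probe sets and 14217 named genes on the array. *Ptgir* had none and is not analysed here. The genes *Ptgs1*, *Ptges* and *Hpgd* had 2 probe sets each, and the other 6 measured genes had 1.

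The samples were rat lung RNA on 2 Affymetrix Rat Genome 230 2.0 arrays, 1 prepared by experimenter 2 and 1 by experimenter 1, numbered as in the sample titles, and the study asked how well such global expression values repeat. No treatment, genotype, strain, sex or age is given in the labels, nor whether the experimenters shared a lung or an RNA extract, so experimenter, animal and extract cannot be told apart. Values are the deposited RMA levels, taken as log2. A difference is experimenter 2 minus experimenter 1 on that scale. Since neither experimenter has a replicate array, the text holds no p-value and no standard error.

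The prostanoid pathway starts when a phospholipase frees arachidonic acid from membranes. Cyclooxygenases turn it into a short-lived endoperoxide, from which separate terminal synthases make prostacyclin, thromboxane and the prostaglandins of the D, E and F types. The lung is known as the organ that clears prostaglandins from passing blood: a carrier takes them up and the dehydrogenase encoded by *Hpgd* oxidises them. Prostacyclin relaxes pulmonary vessels and holds back platelets, while thromboxane constricts vessels and airways and activates platelets.

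*Ptgs2* had the widest gap between the arrays, *Ptgs1* encodes the other cyclooxygenase, and *Hpgd* gave the brightest signal of the set, so the upstream sequences of these 3 genes are shown. *Ptgs1* is known for steady expression and *Ptgs2* for rapid induction through its promoter. Of the 10 members, 9 matched an entry in RefSeq's GRCr8 assembly (all but *Ptgis*). The 250 bases before the annotated start were taken, at chr13:64713813-64714062 (+ strand) for *Ptgs2*, chr3:39981169-39981418 (+ strand) for *Ptgs1* and chr16:39034832-39035081 (- strand) for *Hpgd*. Capitals mark matches on either strand to any of 5 motifs, chosen after the *Ptgs2* sequence had been read: a TATA box with the letters TATAAA, a GC box with GGGCGG, an E-box with CACGTG, a C/EBP-type site with TTNNGCAAT and a cyclic AMP response element with TGACGTCA. Adjoining matches would run together as 1 block of capitals, and none does so in these 3 sequences.
Ptgs2: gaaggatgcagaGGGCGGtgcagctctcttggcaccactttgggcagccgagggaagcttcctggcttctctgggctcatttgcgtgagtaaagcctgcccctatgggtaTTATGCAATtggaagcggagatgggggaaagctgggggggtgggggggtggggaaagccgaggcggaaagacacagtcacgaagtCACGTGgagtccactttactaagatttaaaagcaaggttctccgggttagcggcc
Ptgs1: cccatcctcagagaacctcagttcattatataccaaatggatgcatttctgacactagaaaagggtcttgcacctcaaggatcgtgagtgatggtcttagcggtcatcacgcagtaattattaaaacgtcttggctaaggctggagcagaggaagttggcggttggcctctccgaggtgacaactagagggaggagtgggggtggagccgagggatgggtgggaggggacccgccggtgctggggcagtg
Hpgd: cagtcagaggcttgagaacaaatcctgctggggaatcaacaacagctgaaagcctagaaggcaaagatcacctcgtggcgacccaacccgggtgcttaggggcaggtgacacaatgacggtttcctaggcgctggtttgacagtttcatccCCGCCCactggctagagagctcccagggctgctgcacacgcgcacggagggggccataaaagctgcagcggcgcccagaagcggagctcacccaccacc
The *Ptgs2* window held the E-box at bases 55 to 50 before the start and the C/EBP-type site at bases 140 to 132, besides a GC box. CACGTG occurs in 5.59% of all 33469 RefSeq promoter windows of this length, TTNNGCAAT in 2.04% and GGGCGG in 30.5%. *Ptgs2* was the only 1 of the 9 member windows with the E-box or the C/EBP-type letters. Since the motifs were chosen after the *Ptgs2* sequence had been read, this says nothing particular about *Ptgs2*. None of the 5 was found in the *Ptgs1* window, and the *Hpgd* window held a GC box. The TATAAA letters, present in 12.9% of all windows, were found among members for *Tbxas1* alone, and TGACGTCA, present in 1.59%, for none. These matches describe letters in the reference genome and were not measured on the arrays.

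Among the cyclooxygenases, *Ptgs2* and *Ptgs1* differed between the arrays in opposite directions. *Ptgs2* measured 6.00 for experimenter 2 and 5.45 for experimenter 1, a difference of 0.55, or 1.47-fold higher for experimenter 2. Its level was at percentile 46.6 of all probe sets for experimenter 2 and 38.8 for experimenter 1, below the median on both arrays. Among genes by their brightest probe set *Ptgs2* was at percentiles 29.8 for experimenter 2 and 24.3 for experimenter 1. The difference was the largest in size of the 12 member probe sets. It was larger in size than 94.7% of all differences on the array, and the SD of the difference was 0.31 among the 3104 probe sets of its bin when all were put in 10 bins by mean level. *Ptgs1* measured 8.36 for experimenter 2 and 8.58 for experimenter 1 by probe set 1368259_at, a difference of -0.22. Its other probe set, 1381806_at, measured 5.12 and 5.48 for experimenters 2 and 1, a difference of -0.36. Both *Ptgs1* probe sets were thus lower for experimenter 2, and 1 of them exceeded the SD of all differences, 0.28. The difference of *Ptgs2* exceeded that of 1368259_at by 0.77, a gap between single values with no replicate error.

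**Figure D1:**
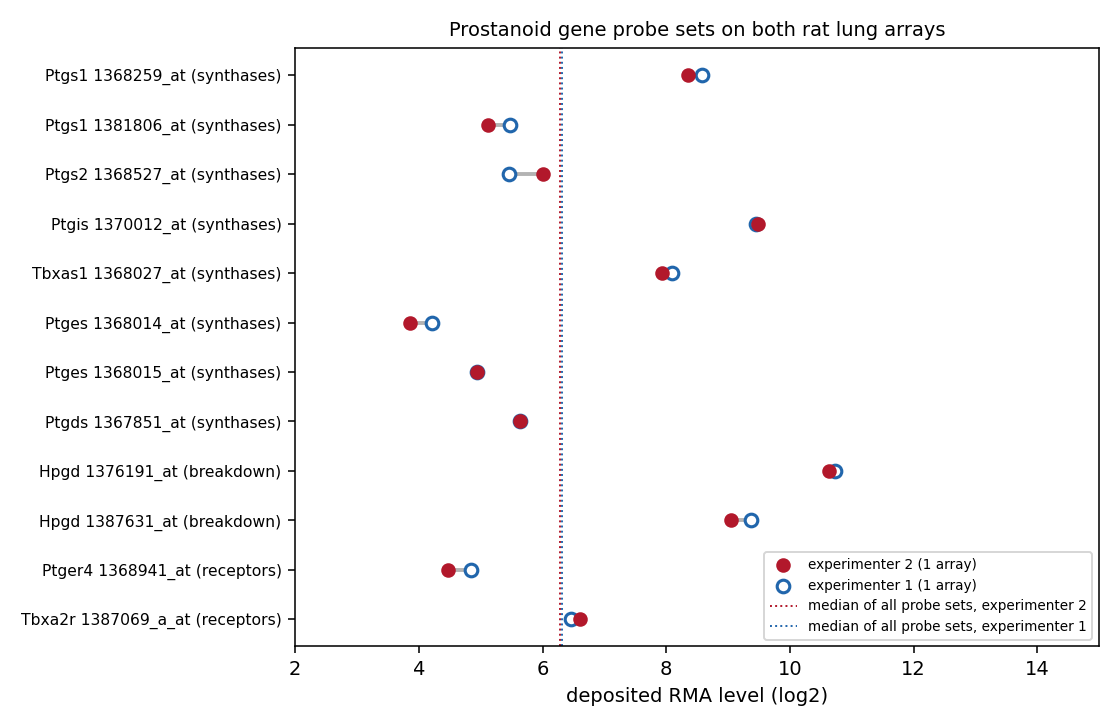
Deposited RMA level (log2, horizontal axis) of each of the 12 member probe sets, with experimenter 2 as filled red points and experimenter 1 as open blue points (1 array each), and each array's median over all probe sets as a dotted line. *Ptgs2* has the widest gap, 6.00 for experimenter 2 and 5.45 for experimenter 1, and 6 probe sets lie above and 6 below the medians on both arrays.

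Counted by size, no member probe set was past 1.5-fold in either direction. Over the whole array 4.35% of probe sets were past 1.5-fold, 2.05% higher and 2.3% lower for experimenter 2, and 0.37% were past 2-fold, 0.261% higher and 0.11% lower. A count of 0 among 12 is therefore near that background. *Ptgs2* lay just inside the limit of 1.5-fold, which is 0.58 on the log2 scale, and its place depended on the scaling. With the median difference of all probe sets, -0.052, set to 0, *Ptgs2* was 1.52-fold higher for experimenter 2, past the limit, at a difference of 0.61. It was also past the limit after removal of a lowess trend, at 1.52-fold, and after quantile normalization, at 1.51-fold.

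The terminal synthases of prostacyclin and thromboxane differed little between the arrays. *Ptgis*, prostacyclin synthase, measured 9.48 for experimenter 2 and 9.45 for experimenter 1, a difference of 0.032, at percentiles 89.4 and 88.8. *Tbxas1*, thromboxane synthase, measured 7.93 for experimenter 2 and 8.09 for experimenter 1, a difference of -0.16, at percentiles 71.6 and 73.3. Both enzymes belong to the cytochrome P450 superfamily and use the same endoperoxide as substrate. Their differences were within the SD of 0.28 over all probe sets and lay 0.20 apart.

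*Ptges* and *Ptgds* gave dimmer signals. *Ptges*, the inducible microsomal prostaglandin E synthase, measured 4.94 for both experimenters by probe set 1368015_at, a difference of 0.0029. By probe set 1368014_at it measured 3.86 for experimenter 2 and 4.22 for experimenter 1, a difference of -0.35. The probe sets of this gene therefore disagreed by 0.36, and both lay at or below percentile 32.8 on each array. *Ptgds*, the lipocalin-type prostaglandin D synthase best known from brain and meninges, measured 5.64 for experimenter 2 and 5.63 for experimenter 1, at percentiles 41.9 and 41.1. RMA gives no detection call, so it is not known whether these levels, that of *Ptgs2*, or those of the dimmer receptors, exceed background.

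*Hpgd*, the NAD-dependent dehydrogenase that starts prostaglandin inactivation, was in the top 10% of signals by probe set 1376191_at. It measured 10.64 for experimenter 2 and 10.72 for experimenter 1, a difference of -0.083, at percentiles 96.2 and 96.5. By probe set 1387631_at it measured 9.06 and 9.38 for experimenters 2 and 1, a difference of -0.32, at percentiles 85.5 and 88.2. Both probe sets were lower for experimenter 2, and they differed by 0.24 in how much. In the bins of mean level that hold them, the SD of the difference was 0.23 for 1376191_at and 0.25 for 1387631_at.

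The measured receptors gave signals near or below the middle of each array. *Ptger4*, a prostaglandin E receptor that raises cyclic AMP, measured 4.47 for experimenter 2 and 4.84 for experimenter 1, a difference of -0.37, at percentiles 26.5 and 30.7. This was the largest negative difference among the members, and it was 1.29-fold. *Tbxa2r*, the thromboxane receptor of smooth muscle and platelets, measured 6.60 for experimenter 2 and 6.45 for experimenter 1, a difference of 0.15, at percentiles 54.1 and 51.7. The receptor and the synthase of thromboxane thus differed in opposite directions, each within the SD of all differences.

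**Figure D2:**
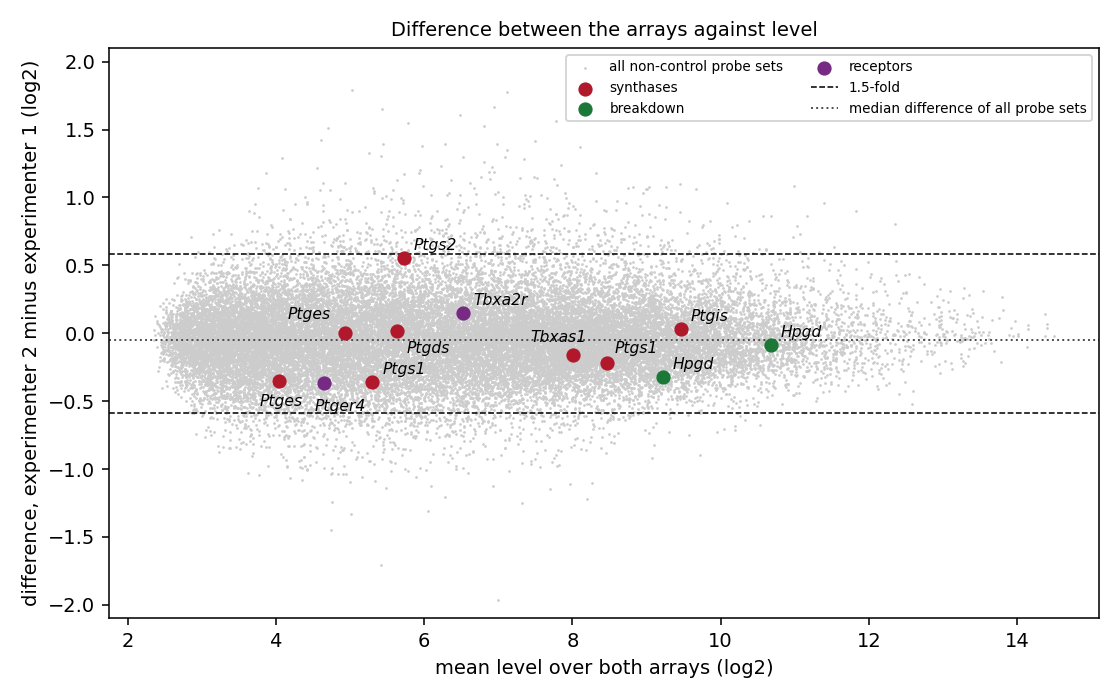
Difference between the arrays (experimenter 2 minus experimenter 1, log2, vertical axis) against the mean level over both arrays (log2, horizontal axis) for all 31042 probe sets in grey and the 12 member probe sets in colour by role; dashed lines mark 1.5-fold and the dotted line the median difference of -0.052. *Ptgs2*, at 0.55, lies just inside the upper dashed line, and the other members lie between -0.37 and 0.15.

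Over the 12 member probe sets, 7 were lower and 5 higher for experimenter 2, a share of 58.3% lower against 58.7% of all probe sets. The median difference of the members was -0.12, with a range of -0.37 to 0.55, beside a median of -0.052 over all probe sets. Its sign depended on the choice of probe sets: it was 0.0029 with the brightest probe set per gene and -0.16 when the probe sets of each gene were averaged. The SD of the members' differences, 0.27, was close to the 0.28 over all probe sets. In size, 5 of the 12 (41.7%) were beyond 0.28, as were 28.4% of all probe sets. These 5 were *Ptgs2*, which was higher, and 1 probe set each of *Ptgs1*, *Ptges*, *Hpgd* and *Ptger4*, which were lower. For each of the 3 genes with 2 probe sets, the probe set with the lower mean level had the more negative difference. *Ptgs2* and *Ptger4* had no second probe set to set beside theirs.

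A list of other pathway genes was drawn up to place the members among the steps around them. It named 35 genes, of which 34 were measured by 46 probe sets. None of these 46 was past 1.5-fold (0 higher and 0 lower), beside 4.35% of all probe sets. The median difference was -0.058, with 26 lower and 20 higher for experimenter 2. That is 56.5% lower, beside 58.7% of all probe sets.

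At the first step, arachidonate release, 8 of 12 probe sets (66.7%) were lower for experimenter 2, beside 58.7% of all probe sets. Their median difference was -0.19, beside -0.052 over all probe sets. The difference closest to 1.5-fold was that of *Pla2g6*, a calcium-independent phospholipase, at -0.58 by probe set 1377408_at. That probe set had 6.41 for experimenter 2 against 6.99 for experimenter 1. The other *Pla2g6* probe sets differed by -0.23 and -0.28, so all 3 were lower. *Mgll*, the lipase of monoacylglycerols, differed by -0.53 by its brightest probe set (9.62 for experimenter 2 and 10.16 for experimenter 1), but by 0.0049, -0.061 and -0.14 by the other 3. *Pla2g1b*, a secreted phospholipase first known from pancreas, gave the highest signal of the release genes at 10.47 for experimenter 2 and 10.92 for experimenter 1. *Pla2g4a*, the cytosolic phospholipase that supplies arachidonate for prostanoids, measured 7.94 for experimenter 2 and 7.84 for experimenter 1.

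The 7 probe sets of the other prostanoid synthases differed by between -0.34 and 0.20, and 6 of them were within the SD of 0.28. The exception was the dimmer probe set of *Akr1b1*, an aldo-keto reductase with prostaglandin F synthase activity, at 6.29 for experimenter 2 and 6.63 for experimenter 1. *Ptges3*, a cochaperone that also has prostaglandin E synthase activity, measured 11.70 for experimenter 2 and 11.63 for experimenter 1, at percentiles 98.7 and 98.5. *Ptges2*, the membrane-associated form, measured 8.40 for experimenter 2 and 8.60 for experimenter 1. The 3 genes named for prostaglandin E synthesis thus held different places, with *Ptges* in the lower part of both arrays and the others in the upper part. *Hpgds*, the haematopoietic prostaglandin D synthase of mast cells and other leukocytes, measured 6.04 for experimenter 2 and 6.10 for experimenter 1. These were a little below the array medians of 6.28 and 6.32. Among probe sets with 1 gene symbol *Hpgds* was at percentiles 38.3 and 38.4, and among genes by their brightest probe set at 30.2 and 30.7.

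On the clearance side, *Slco2a1*, the carrier that brings prostaglandins into cells ahead of oxidation by *Hpgd*, gave the brightest signal of all listed pathway genes. It measured 12.43 for experimenter 2 and 12.55 for experimenter 1 by probe set 1372889_at, at percentiles 99.4 and 99.5. Its other probe set measured 8.89 for experimenter 2 and 9.08 for experimenter 1, at percentiles 83.7 and 85.3. Of the 8 probe sets for transport and reduction, 6 (75%) were lower for experimenter 2, beside 58.7% of all probe sets. Their differences ran from -0.22 to 0.14. *Ptgr1* and *Ptgr2*, reductases that act after *Hpgd*, measured 8.61 and 9.11 for experimenter 2 and 8.55 and 8.97 for experimenter 1 by their brightest probe sets. The carrier and both *Hpgd* probe sets were at or above percentile 83.7 on each array. *Ptgr2* was at 86.1 and 84.3 for experimenters 2 and 1 by its brighter probe set, but at 28.2 and 30.5 by the other. *Ptgr3*, another listed reductase, was at 55.0 and 56.7 by its brighter probe set and at 44.5 and 44.1 by the other.

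**Figure D3:**
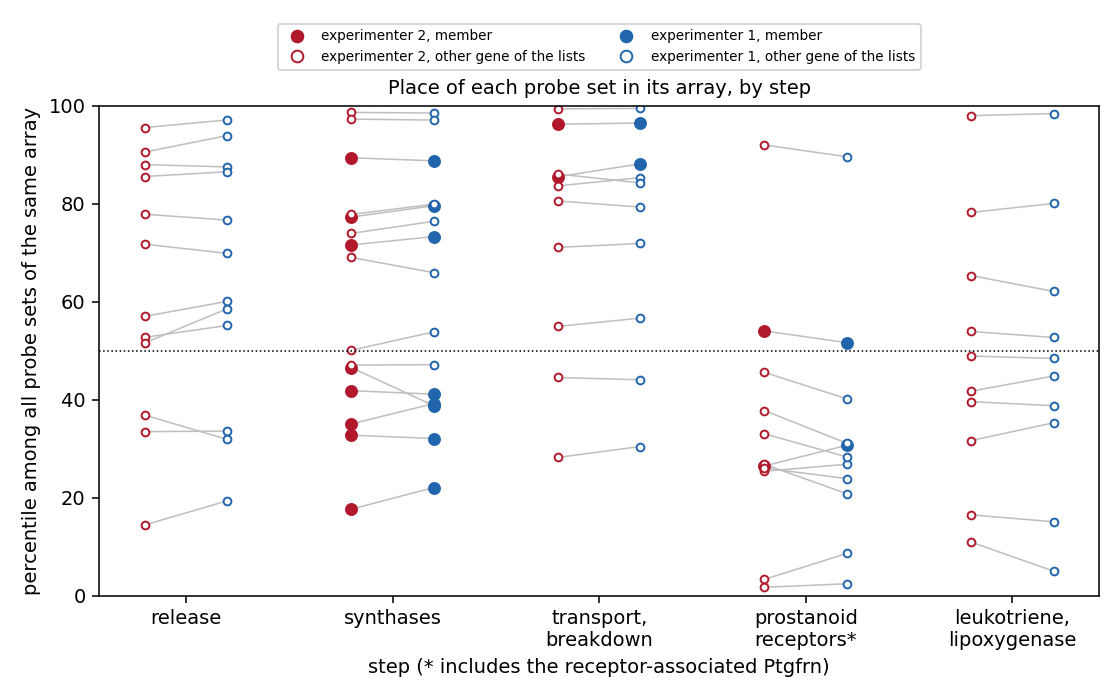
Percentile of each probe set among all probe sets of its own array (vertical axis), for members (filled) and other listed pathway genes (open), by step along the pathway, with experimenter 2 in red on the left and experimenter 1 in blue on the right of each pair (1 array each) and the 50th percentile dotted. Receptor probe sets lie mostly in the lower part, with *Tbxa2r* at 54.1 and 51.7 for experimenters 2 and 1. The receptor-associated *Ptgfrn*, plotted in the same column, lies at 92.0 and 89.6. The brighter probe sets of *Slco2a1* and *Hpgd*, for transport and breakdown, lie at 99.4 and 96.2 for experimenter 2 and 99.5 and 96.5 for experimenter 1.

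Of the prostanoid receptors as a family, 7 of 9 genes were measured by 10 probe sets, while *Ptgir* and *Ptgdr* are not analysed here. Of the 10, 9 lay below the median of both arrays, *Tbxa2r* being the exception. Among probe sets with 1 gene symbol *Tbxa2r* was below the middle too, at percentiles 45.2 for experimenter 2 and 42.8 for experimenter 1, as it was among genes by their brightest probe set, at 36.1 and 34.3. By comparison, 8 of the 25 probe sets for synthases, breakdown and transport lay below both medians. Levels of different probe sets depend on their probes as well as on RNA, so these places describe signal and not amounts of transcript. Among the receptors outside the members, both probe sets of *Ptger3*, a prostaglandin E receptor that lowers cyclic AMP, were higher for experimenter 2. They measured 5.93 and 5.34 for experimenter 2 and 5.56 and 4.87 for experimenter 1, differences of 0.37 and 0.47. *Ptger1*, the calcium-linked prostaglandin E receptor, gave 0.37 by 1 probe set and -0.46 by the other, at levels of 4.50 and 2.88 for experimenter 2 and 4.13 and 3.34 for experimenter 1. *Ptger2* differed by -0.16 and *Ptgdr2*, a prostaglandin D receptor, by 0.31. *Ptgfr*, the prostaglandin F receptor, gave 0.092 by the brighter of its probe sets and -0.13 by the other. *Ptgfrn*, a membrane protein that binds to the prostaglandin F receptor and was listed with the receptors, measured 9.84 for experimenter 2 and 9.56 for experimenter 1.

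The leukotriene branch uses the same arachidonate and served as a neighbouring pathway. Its 10 probe sets had 5 higher and 5 lower for experimenter 2, beside 58.7% of all probe sets lower. The median difference was 0.0075 and the range -0.33 to 0.35. *Lta4h*, the hydrolase that makes leukotriene B, gave its highest signal at 11.31 for experimenter 2 and 11.56 for experimenter 1. *Alox5ap*, the partner protein of 5-lipoxygenase, measured 8.43 for experimenter 2 and 8.62 for experimenter 1, and *Alox5*, the lipoxygenase itself, 7.46 and 7.26 for experimenters 2 and 1.

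Markers of the cells that carry these enzymes were placed beside the members. The lung label fitted the alveolar markers: all 10 probe sets of type 2 genes and all 4 of type 1 genes were in the top 10% of both arrays. So were 2887 of all 31042 probe sets. In the other lists, 6 of 8 endothelial, 5 of 7 fibroblast and 3 of 4 macrophage probe sets were there. Smooth muscle had 2 of 7 there, platelets 1 of 5 and mast cells 0 of 8. Of the cardiac muscle probe sets, 0 of 6 reached the median of either array. Endothelial markers, of the cells in which *Ptgis* is best known, averaged 10.30 for experimenter 2 and 10.40 for experimenter 1 over 8 probe sets of 7 of 8 listed genes, with a median difference of -0.079. Smooth muscle markers averaged 8.45 for experimenter 2 and 8.65 for experimenter 1. All 7 probe sets of 6 genes were lower for experimenter 2, beside 58.7% of all probe sets on the array. Platelet markers, of the cells best known for *Ptgs1* and *Tbxas1*, held 5 probe sets of 5 of 7 listed genes. They averaged 6.88 for experimenter 2 and 6.94 for experimenter 1. The brightest was *Pf4*, a platelet chemokine, at 10.54 and 10.61, and the dimmest *Ppbp*, at 4.45 and 4.44 for experimenters 2 and 1. Macrophage markers, which like platelets go with *Tbxas1*, averaged 10.71 and 10.77 for experimenters 2 and 1 over 4 probe sets of 4 of 7 genes. Mast cell markers, which go with *Hpgds*, had 6 of 8 probe sets (75%) lower for experimenter 2, beside the same 58.7%. Their median difference was -0.18. The part of these cells in the members' differences was not tested, and in a whole-tissue sample fewer cells of a type and less RNA per cell cannot be told apart.

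**Figure D4:**
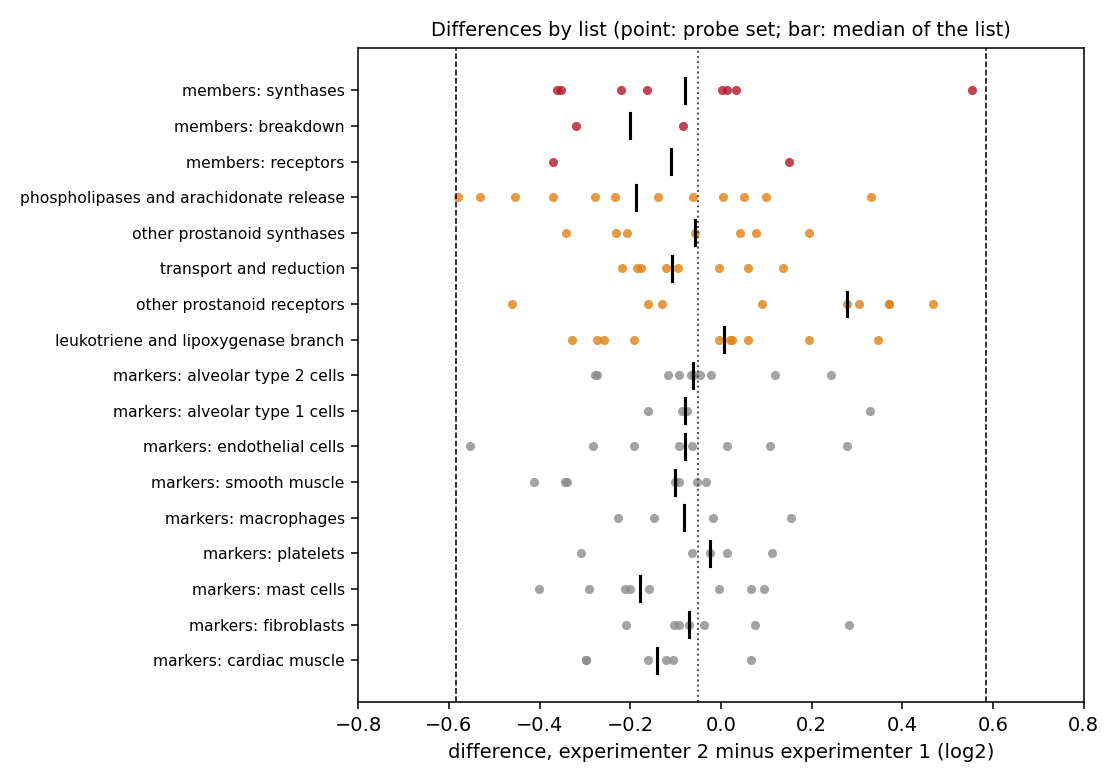
Difference between the arrays (experimenter 2 minus experimenter 1, log2, horizontal axis) of each probe set by list, with members in red, other pathway genes in orange and cell markers in grey; black bars are list medians, dashed lines 1.5-fold and the dotted line the median of all probe sets. No point of any list lies past 1.5-fold, and *Ptgs2* at 0.55 is the point farthest to the right.

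The gap between the 3' and 5' control probe sets can widen with RNA shortening, but does not measure that alone. It was 2.71 for experimenter 2 and 2.15 for experimenter 1 for *Actb*, 1.36 and 1.13 for *Hk1*, and 0.26 and 0.30 for *Gapdh*. The part of RNA shortening in the members' differences was not tested. Across all 31042 probe sets, which are not independent of each other, Pearson's r between the arrays was 0.993.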

How the data were processed

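Total RNA from 2 rat lung samples was hybridised to Affymetrix Rat Genome 230 2.0 arrays. The deposited log2 values come from RMA, run by the authors, per the submitters' processing notes; the sources used here state neither its version nor which arrays were normalized jointly. The base of the logarithm was taken as 2 from the range of values, 2.26 to 14.51. Setting aside 57 controls left 31042 probe sets. The platform annotation names a single gene for 20826 of them, more than 1 for 436 and none for 9780. Symbols were updated through Entrez identifiers to assembly GRCr8, which matched 20758. Percentiles rank a probe set among all 31042 of its array. All differences are without further centring. No test was possible with 1 array per experimenter, so fixed sizes of 1.5-fold and 2-fold were used; the number of arrays limits the precision. All member probe sets are named; other pathway genes are named by their brightest probe set, and their other probe sets were picked after their values were seen. Members and lists were chosen with earlier results of these data known. Alternatives tried were centring on the median, removal of a lowess trend (fraction 0.3), quantile normalization, a filter at the median level, other summaries over probe sets and other sets for percentiles. Calculations used Python 3.11.15, pandas 2.3.3, numpy 2.4.6, statsmodels 0.14.6 and scipy 1.17.1, plots matplotlib 3.10.9, and the scripts were tested on simulated data.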

Additional observations from a re-analysis of the deposited data

How the results depend on the processing

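No paired analysis was possible because neither experimenter has a second array; leaving out an array was likewise not possible. The count of member probe sets at least 1.5-fold apart was 0 as deposited. It was 1, *Ptgs2*, after median centring (0.61), lowess (0.60) and quantile normalization (0.60). Under these 3 scalings 2.66%, 2.66% and 2.55% of all probe sets were at least 1.5-fold higher. The filter at the median level, applied to the deposited values, kept 6 member probe sets and left out *Ptgs2*. Since a filter only removes probe sets, the count could only stay at 0. At 2-fold it was 0 under each of these 4, as was the count of pathway probe sets at 1.5-fold. Under the 3 scalings each member difference was between 0.011 and 0.058 higher than as deposited, and no sign turned. The members' median difference of -0.12 ranged from -0.16 (mean over a gene's probe sets) to 0.0029 (brightest probe set per gene), turning sign. Taking the brightest left out the dimmer probe sets of *Ptgs1*, *Ptges* and *Hpgd*, with differences of -0.36, -0.35 and -0.32. Why these were more negative was not tested. Percentiles among probe sets with 1 symbol were 0.70 to 8.91 points lower, and among genes by their brightest probe set 2.22 to 18.0 points lower. Leaving out probe sets with the suffixes _s_at, _x_at and _a_at moved them by -0.025 to 0.18 points and dropped *Tbxa2r*. Without detection calls, low signal limits *Ptgs2*, *Ptges*, *Ptgds*, *Ptger4* and the other dim receptors.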
